A study of Mus musculus with 4 samples.

Results

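The 10 genes described here are those of metallothioneins and of zinc and copper transport: Mt1, Mt2, Mtf1, Atp7a, Atp7b, Slc31a1, Slc30a1, Slc39a1, Slc39a4 and Slc39a6. They were taken by name from the deposited tables, which list 25814 genes. Atp7a was selected on its measured RNA level, which had been noted as higher in Nfat5-/- cells, so its values are given as a description without a test. Of the 10 genes, 9 had enough reads to be tested and Atp7b had not.

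Keratinocytes (KCs), which form the epidermis, came from tails of adult 129/sv mice and were grown without treatment in serum-free medium with 0.06 mM calcium. WT and Nfat5-/- mice, which lack the osmosensitive transcription factor NFAT5 and were compared with WT littermates, gave 2 libraries of polyadenylated RNA per genotype. The libraries held between 16219445 and 23494436 gene reads, and 15825 to 16330 genes had at least 1 read. Nfat5 itself had 408 and 929 reads in the WT and 715 and 770 reads in the Nfat5-/- libraries, with a log2 fold change of 0.09 ± 0.26 (SE, adjusted p = 0.913 in edgeR), so its reads do not separate the labelled genotypes. The sources used here do not say which part of the gene is deleted. "Nfat5-/- library" therefore means a library labelled so.

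Zinc and copper are cofactors of many enzymes and are toxic in excess. Metallothioneins are small, cysteine-rich proteins that bind both metals, and their genes are switched on by MTF1, a zinc-sensing factor that binds metal response elements in promoters. Transporters of the Slc30 (ZnT) family move zinc out of the cytosol, those of the Slc39 (ZIP) family move it in, SLC31A1 takes up copper, and the ATPases ATP7A and ATP7B load copper into the secretory route and export it.

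Metal response elements share a short core, written TGCACNC or TGCGCNC, and it was searched for on both strands of the promoter windows of these genes. RefSeq promoter sequences on GRCm38.p6, cut to 250 bases before and 30 bases after the start, were found for 8 of the 10 genes. The core was present in the windows of 5 of them, and in 24.1% of all 32851 RefSeq windows of the same length. The 4 windows below belong to both metallothionein genes, to Slc30a1 and to Atp7a, and are shown because MTF1 is known to act on the first 3 of these genes and because the levels of Mt1, Mt2 and Atp7a differed most between the genotypes. They are written 5′ to 3′ on the strand of the gene, with capitals marking the core or its reverse complement.
Mt1 (chr8:94178839-94179118, plus strand): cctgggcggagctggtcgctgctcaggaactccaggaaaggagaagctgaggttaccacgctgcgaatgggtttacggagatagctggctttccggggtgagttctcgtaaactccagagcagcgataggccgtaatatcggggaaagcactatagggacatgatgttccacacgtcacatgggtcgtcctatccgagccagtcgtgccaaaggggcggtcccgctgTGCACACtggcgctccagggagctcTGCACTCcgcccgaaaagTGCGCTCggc
Mt2 (chr8:94172368-94172647, plus strand): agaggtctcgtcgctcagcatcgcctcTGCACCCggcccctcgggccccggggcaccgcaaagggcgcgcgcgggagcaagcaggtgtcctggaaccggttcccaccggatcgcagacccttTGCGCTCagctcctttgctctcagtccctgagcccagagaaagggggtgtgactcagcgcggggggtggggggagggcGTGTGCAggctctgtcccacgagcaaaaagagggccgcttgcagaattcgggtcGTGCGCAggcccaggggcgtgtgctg
Slc30a1 (chr1:191906531-191906810, plus strand): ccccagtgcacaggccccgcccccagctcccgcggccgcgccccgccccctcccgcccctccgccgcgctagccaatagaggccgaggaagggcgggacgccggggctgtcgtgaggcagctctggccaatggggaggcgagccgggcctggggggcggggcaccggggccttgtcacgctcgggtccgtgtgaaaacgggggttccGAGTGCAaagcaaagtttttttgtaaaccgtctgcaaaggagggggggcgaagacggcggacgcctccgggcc
Atp7a (chrX:106026974-106027253, plus strand): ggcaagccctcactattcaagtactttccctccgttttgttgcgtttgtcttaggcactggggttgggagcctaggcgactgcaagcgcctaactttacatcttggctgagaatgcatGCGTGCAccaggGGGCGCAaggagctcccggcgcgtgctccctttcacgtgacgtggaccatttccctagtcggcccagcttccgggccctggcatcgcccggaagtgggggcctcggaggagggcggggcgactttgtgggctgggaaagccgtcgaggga

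The Mt1 window held 3 cores, all on the plus strand, whose first bases lay at positions -23, 3 and 21 from the RefSeq start. The Mt2 window held 4, with first bases at -223 and -128 on the plus strand and at -50 and 5 on the minus strand. At least 3 cores were present in 1.73% of all windows. The Slc30a1 window held 1 at -43 and the Atp7a window held 2 at -132 and -120, all on the minus strand, and the Atp7b window held 1. The windows of Mtf1, Slc31a1 and Slc39a1 held none, and Slc39a4 and Slc39a6 were not searched. GENCODE M21 lists 3 Mt1 transcripts starting between 94179082 and 94179241 and 2 Mt2 transcripts starting between 94172664 and 94172860, so both Mt2 starts and the later Mt1 starts lie downstream of the windows shown. The GENCODE starts of Atp7a, the first at 106027276, all lie downstream of its window as well. The osmotic response element, the site bound by NFAT5, was matched in the windows of 0 of the 8 genes and in 4.71% of all windows. Such matches describe the letters of a window and not the binding of a factor, and the lack of a match says nothing of the factor.

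Both metallothionein genes expressed in these cells rose in Nfat5-/- KCs. Mt1, on chromosome 8 (94179082 to 94180327, GRCm38), had RNA levels of 51.6 and 35.7 RPKM (exon reads per exon length and sequencing depth) in WT replicates 1 and 2, and of 110.5 and 129.6 RPKM in Nfat5-/- replicates 1 and 2. Both Nfat5-/- libraries lay above both WT libraries, and the lower of the former was more than 2-fold above the higher of the latter. The group means were 43.6 ± 11.2 RPKM for WT and 120.0 ± 13.5 RPKM in Nfat5-/- KCs (SD, n = 2). Counted as gene reads, Mt1 had 1068 and 986 in the WT and 3316 and 3083 in the Nfat5-/- libraries. The log2 fold change was 1.48 ± 0.19 (SE, edgeR quasi-likelihood test, adjusted p = 0.0208), which is a 2.80-fold higher level with a 95% interval of 2.07 to 3.78. Of all 12614 genes tested, 98.4% had a lower log2 fold change. In the RNA of whole cultures, more cells of a kind and more RNA per cell cannot be told apart.

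Mt2, which encodes the second widely expressed metallothionein and ends 5513 bases before Mt1 (chromosome 8, 94172664 to 94173568), had 42.9 and 21.3 RPKM in the WT libraries and 136.7 and 135.8 RPKM in the Nfat5-/- libraries. The WT libraries differed from each other by about 2-fold, whereas the Nfat5-/- libraries were close to each other and above both WT libraries. The group means were 32.1 ± 15.2 and 136.2 ± 0.664 RPKM (SD, n = 2), from 432 and 287 gene reads in WT and 1941 and 1533 in Nfat5-/- KCs. The log2 fold change of 2.08 ± 0.28 (SE, adjusted p = 0.0251 in edgeR) corresponds to a 4.23-fold higher level with a 95% interval of 2.68 to 6.66. All exon reads of Mt1 and Mt2 fitted 1 place in the genome, so neither gene shared reads with the other. Mt3 and Mt4, the metallothionein genes known from brain and stratified epithelium, had at most 1 read per library.

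Of the 8 tested genes of the set other than Atp7a, these 2 metallothioneins passed the threshold as higher and 0 as lower, in edgeR and in DESeq2, and 3 had an unadjusted p under 0.05 in edgeR. Of all genes tested, 1.27% passed the edgeR threshold in either direction, 0.943% as higher and 0.325% as lower, 3.39% passed in DESeq2, and 14.6% had an unadjusted p under 0.05. Neither call held with either Nfat5-/- library left out, and there the calls over all genes fell as well. The log2 fold change without Nfat5-/- replicate 1 was 1.61 for Mt1 and 2.09 for Mt2. Without Nfat5-/- replicate 2 it was 1.35 and 2.07. The log2 fold change remained between 1.24 and 1.78 for Mt1 and between 1.65 and 2.66 for Mt2 in all 14 alternative settings, and 12 of the 14 kept each gene past the threshold.

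Set against each other, the 2 metallothionein RNAs gave different ratios in the groups. The ratio of Mt2 to Mt1, in RPKM, was 0.831 and 0.597 in the WT libraries and 1.24 and 1.05 in the Nfat5-/- libraries. Per length, Mt1 was thus above Mt2 in both WT libraries and below it in both Nfat5-/- libraries. In gene reads, Mt1 was above Mt2 in all 4 libraries. Which of the 2 is higher in Nfat5-/- KCs therefore rests on the exon lengths of the annotation, 1246 bases for Mt1, which is its whole span, and 588 for Mt2, while the difference of the ratio between the groups does not. The mean ratio was 0.714 ± 0.165 in WT and 1.14 ± 0.134 in Nfat5-/- KCs (SD, n = 2). The ratio was not tested. Together Mt1 and Mt2 reached 94.4 and 57.1 RPKM in the WT libraries and 247.2 and 265.4 RPKM in the Nfat5-/- libraries.

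**Figure D1:**
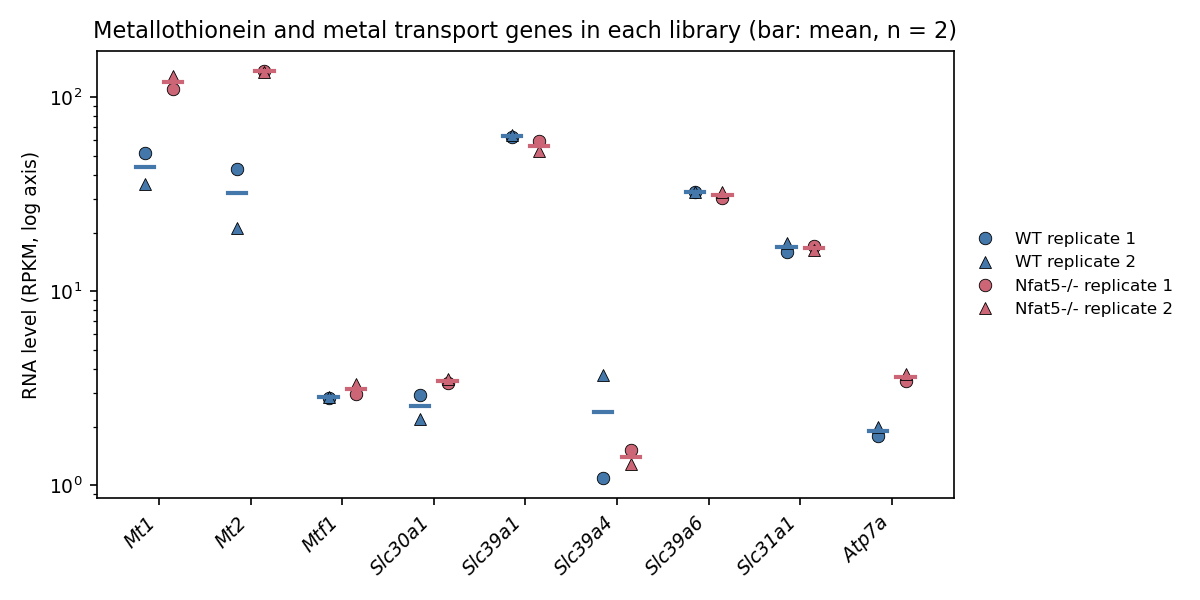
RNA level (RPKM, log axis) of 9 of the 10 genes in each of the 4 libraries, with circles for replicate 1, triangles for replicate 2 and bars for the mean of 2 libraries. Mt1, Mt2 and Atp7a lie higher in both Nfat5-/- libraries (110.5 and 129.6 RPKM for Mt1), as do Mtf1 and Slc30a1 by smaller gaps. Slc39a1 lies lower in both (59.9 and 53.0 against 62.3 and 64.2 RPKM in WT). The groups of Slc39a6, Slc31a1 and Slc39a4 overlap, and Atp7b, at most 0.0185 RPKM, is left out.

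MTF1, the factor that turns zinc excess into metallothionein transcription, did not pass the threshold at the RNA level. Mtf1 had 2.82 and 2.86 RPKM in the WT and 2.96 and 3.35 RPKM in the Nfat5-/- libraries. The groups did not overlap, but the gap between them was small beside the spread of the Nfat5-/- libraries. This gave a log2 fold change of 0.13 ± 0.13 (SE, adjusted p = 0.688 in edgeR), with a 95% interval of 0.894-fold to 1.34-fold. The gene overlaps 1110065P20Rik on the opposite strand (387 to 552 reads), and nothing states that strand was used in counting. Relative to Mtf1, Mt1 stood at 18.3-fold and 12.5-fold in the WT and at 37.3-fold and 38.7-fold in the Nfat5-/- libraries, per length.

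Of the copper transporters, Atp7a had higher levels in Nfat5-/- KCs, while the groups overlapped for the importer Slc31a1. ATP7A, whose loss causes Menkes disease in humans, passes copper to enzymes in the trans-Golgi and pumps it out of the cell. Atp7a (chromosome X, 106027276 to 106124926) had 1.80 and 1.99 RPKM in the WT and 3.46 and 3.77 RPKM in the Nfat5-/- libraries. Both Nfat5-/- libraries were higher, as the choice of the gene implies. The means were 1.90 ± 0.138 and 3.62 ± 0.225 RPKM (SD, n = 2), from 150 and 222 reads against 415 and 357, and the log2 fold change was 0.93.

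Slc31a1 encodes CTR1, the main importer of copper at the plasma membrane. It had 16.0 and 17.7 RPKM in the WT and 17.2 and 16.4 RPKM in the Nfat5-/- libraries, and the groups overlapped. Its log2 fold change was 0.01 ± 0.10 (SE, adjusted p = 0.972 in edgeR), with a 95% interval of 0.852-fold to 1.19-fold. Over the 4 libraries 14.4% of its exon reads fitted 1 place in the genome, and the gene overlaps Cdc26 on the opposite strand (358 to 566 reads), so its level is uncertain. Atp7b, the exporter known from liver, had 2, 1, 2 and 1 reads in the 4 libraries. This is within the 3 reads, 0.128 to 0.185 CPM (gene reads scaled to library size), taken as the smallest level these totals can show, and no fold was computed.

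Of the zinc transporters in the set, none passed the threshold. Slc30a1 encodes ZnT1, the zinc exporter of the plasma membrane and a known MTF1 target. It had 2.91 and 2.20 RPKM in the WT and 3.38 and 3.52 RPKM in the Nfat5-/- libraries, so that both Nfat5-/- libraries were higher. Its log2 fold change was 0.45 ± 0.17 (SE, adjusted p = 0.295 in edgeR), and the 95% interval of this single gene ran from 1.04-fold to 1.81-fold.

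Among the zinc importers, Slc39a1 (ZIP1), which brings zinc across the plasma membrane, had 62.3 and 64.2 RPKM in the WT and 59.9 and 53.0 RPKM in the Nfat5-/- libraries. Both Nfat5-/- libraries lay below the WT libraries by less than a log2 unit, with a log2 fold change of -0.15 ± 0.10 (SE, adjusted p = 0.575 in edgeR) and a 95% interval of 0.764-fold to 1.07-fold. Slc39a6 (ZIP6), an importer of the LIV-1 subfamily, had 32.4 and 32.7 RPKM in the WT and 30.1 and 32.5 RPKM in the Nfat5-/- libraries. Its groups overlapped, and its log2 fold change was -0.03 ± 0.10 (SE, adjusted p = 0.916 in edgeR) with an interval of 0.826-fold to 1.15-fold.

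Slc39a4 (ZIP4), the importer of dietary zinc whose loss causes acrodermatitis enteropathica in humans, was the most variable gene of the set. It had 1.09 and 3.70 RPKM in the WT and 1.52 and 1.29 RPKM in the Nfat5-/- libraries. WT replicate 2 stood above the other libraries, and WT replicate 1 was the lowest of the 4. On the log2 scale the difference was -0.77 ± 0.48 (SE, adjusted p = 0.521 in edgeR), with an interval of 0.266-fold to 1.29-fold. It was -1.36 with an adjusted p of 0.0183 without WT replicate 1, and 0.36 with an adjusted p of 0.632 without WT replicate 2. Its direction thus rested on 1 WT library.

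Of the 8 tested genes of the set other than Atp7a, 5 had groups that did not overlap in RPKM, with Mt1, Mt2, Mtf1 and Slc30a1 higher and Slc39a1 lower in Nfat5-/- KCs. Among all genes tested the groups were apart in 46.5%, higher in 21.6% and lower in 25%, so this count does not set the genes apart. Their median log2 fold change was 0.07, beside -0.01 for all genes tested. The plot of log2 fold changes shows the metallothioneins away from the other genes of the set.

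**Figure D2:**
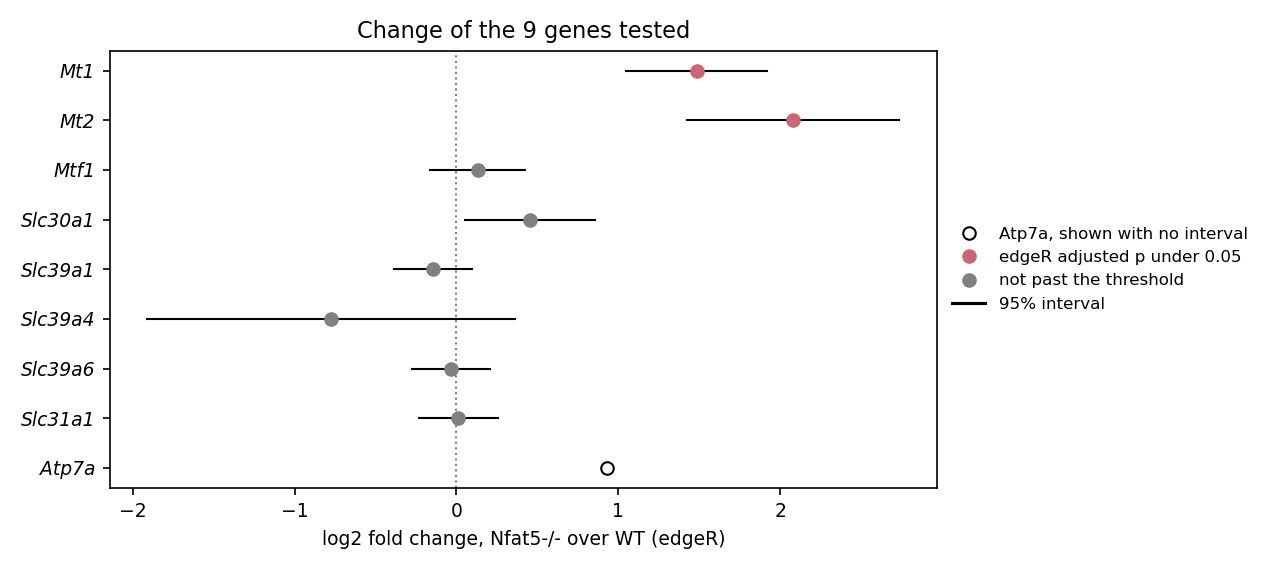
Log2 fold change of the 9 tested genes, Nfat5-/- over WT (x axis), with the 95% interval of each gene from edgeR as a line; Atp7a is drawn as an open circle without an interval. Mt1 (1.48) and Mt2 (2.08) passed the threshold, and the widest interval is that of Slc39a4.

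The levels of the 10 genes, compared per length, spanned a wide range. Averaged over the 4 libraries, the order was Mt2 (84.2 RPKM), Mt1 (81.8), Slc39a1 (59.8), Slc39a6 (31.9), Slc31a1 (16.8), Slc30a1 and Mtf1 (both near 3), Atp7a (2.76), Slc39a4 (1.90) and Atp7b (0.00781). Every library of Slc39a1 was above every library of Slc39a6, and the same held for Slc39a6 over Slc31a1, Slc31a1 over Slc30a1 and Slc39a4 over Atp7b. Counted from uniquely placed exon reads, Slc31a1 came in place 8, below Slc30a1, Mtf1 and Atp7a, so its place rests on reads that fit several sites. The other neighbours overlapped over all 4 libraries, but the order differed between them. In WT KCs the zinc importer Slc39a1 came first, above Mt1 in both libraries, and Mt1 was above Slc39a6 in both. Mt2, in place 4, overlapped with Slc39a6 and was above Slc31a1 in both libraries. Mtf1, Slc30a1 and Slc39a4 followed with overlap between neighbours, as did Slc39a4 and Atp7a. In Nfat5-/- KCs Mt2 came first, above Mt1 in both libraries, and Mt1 was above Slc39a1 in both. The places of the metallothioneins in both groups depend on their annotated exon lengths. In gene reads Mt1 was above Mt2 in both Nfat5-/- libraries. Of the lower genes, Atp7a in place 6 overlapped with Slc30a1, and the libraries of the other neighbours were apart. Among all listed genes, Mt2 ranked 1443 and 2795 in the WT libraries and 486 and 465 in the Nfat5-/- libraries. Atp7a moved from rank 9243 and 9030 to 7888 and 7609.

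The wider lists of metal-handling genes were examined to see whether these changes extended beyond the set. They held 57 further genes, of which 43 were tested. Of these, 2 rose past the threshold (Lox and Csrp1) and 0 fell, and 12 had an unadjusted p under 0.05, beside 1.27% and 14.6% of all genes tested. DESeq2 called 3 higher and 2 lower, beside 3.39% of all genes. The groups were apart in 21 of the 43 (48.8%), with 9 higher and 12 lower, near the 46.5% of all genes. Their median log2 fold change was -0.01, as for all genes tested.

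Among the zinc transporters, 25 were listed and 18 tested. In the edgeR test 0 passed the threshold, and 5 had an unadjusted p under 0.05, beside 14.6% of all genes tested. DESeq2 called 1, Slc39a10, and no other of the list, beside 3.39% of all genes. The groups were apart in 7 of the 18 (38.9%), 1 higher and 6 lower in Nfat5-/- KCs, which is not above the 46.5% of all genes (21.6% higher, 25% lower), and the median log2 fold change was -0.08. The most abundant was Slc39a7 (ZIP7), which releases zinc from the endoplasmic reticulum and Golgi, with 72.1 and 75.4 RPKM in the WT and 72.2 and 77.0 RPKM in the Nfat5-/- libraries. It was followed by Slc39a1. Slc39a7 had a log2 fold change of 0.03 ± 0.10 (SE, adjusted p = 0.917 in edgeR).

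The gene nearest to the threshold was Slc39a10 (ZIP10), a plasma membrane importer that MTF1 is reported to repress, and which is named here after its values were seen. It had 9.04 and 17.0 RPKM in the WT and 4.68 and 4.29 RPKM in the Nfat5-/- libraries. Both Nfat5-/- libraries were below both WT libraries, and WT replicate 2 was almost 2-fold above WT replicate 1. This is a log2 fold change of -1.50 ± 0.26 (SE, adjusted p = 0.05001 in edgeR). The adjusted p ranged from 2.04e-25 to 0.349 over 14 alternative settings, of which 9 were past the threshold, and the log2 fold change from -1.87 to -0.98.

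**Figure D3:**
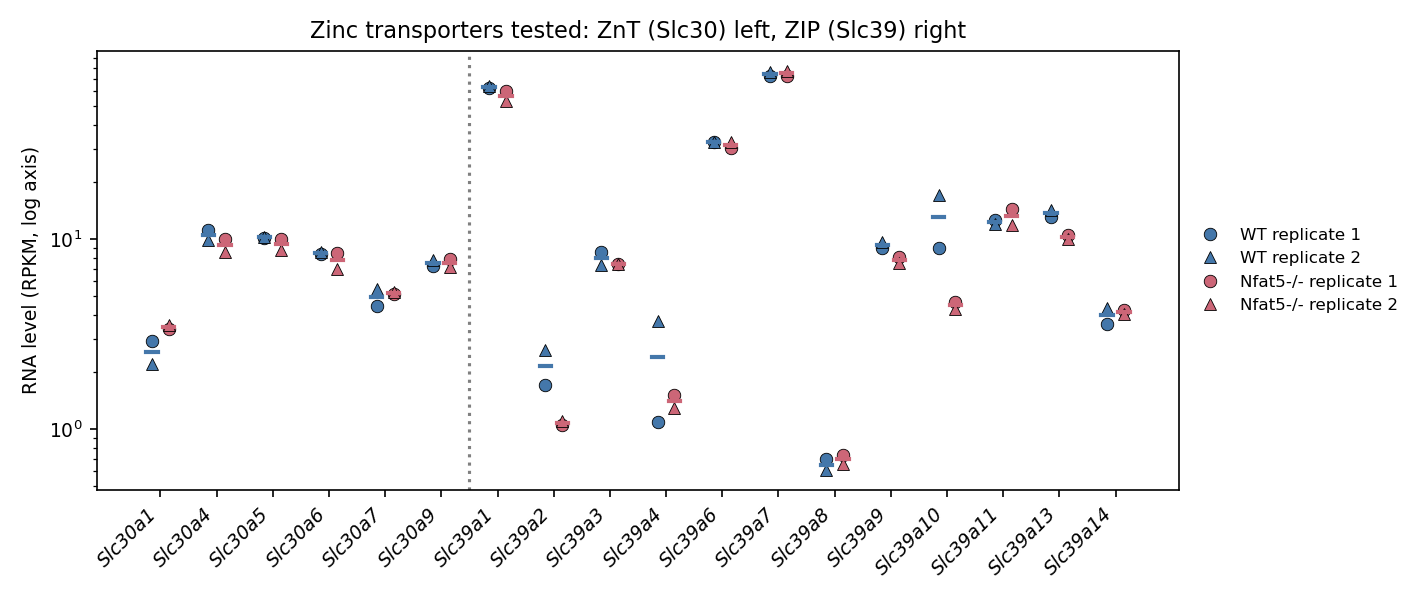
RNA level (RPKM, log axis) of the 18 tested zinc transporters in each library, with circles for replicate 1, triangles for replicate 2 and bars for the mean of 2 libraries; ZnT genes stand left of the dotted line and ZIP genes right of it. The groups lie apart in 7 of the 18, beside 46.5% of all genes tested, and the widest gap is that of Slc39a10.

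Of 9 genes listed as MTF1 and its reported targets, 3 rose (Mt1, Mt2 and Csrp1) and 0 fell in edgeR, and 6 had an unadjusted p under 0.05, beside 1.27% and 14.6% of all genes tested. In DESeq2, which called 3.39% of all genes, 3 were higher and 2, Slc39a10 and Gclc, lower. The median log2 fold change of this list was 0.13. Csrp1, which encodes a LIM-domain protein of the actin cytoskeleton, was the most abundant gene of the list. Mt2 came next in the mean of the 4 libraries (84.2 RPKM, followed by Mt1 at 81.8), but not in WT. There the means of Ndrg1 (84.8 RPKM) and Selenoh (66.3), both named after their values were seen, were above those of Mt1 (43.6) and Mt2 (32.1). Csrp1 had 390.3 and 360.7 RPKM in the WT and 672.6 and 779.2 RPKM in the Nfat5-/- libraries. Its log2 fold change was 0.97 ± 0.12 (SE, adjusted p = 0.0203 in edgeR). Without Nfat5-/- replicate 2 the adjusted p was 0.0881. Gclc, the catalytic subunit of glutathione synthesis and named after its values were seen, had 35.9 and 41.1 RPKM in the WT and 23.9 and 29.2 RPKM in the Nfat5-/- libraries, with a log2 fold change of -0.52 ± 0.14 (SE, adjusted p = 0.144 in edgeR).

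Of 18 genes of copper handling, 17 were tested. Leaving Atp7a aside as untested, 0 passed the threshold in edgeR or DESeq2, and the 1 with an unadjusted p under 0.05 was Steap2, a metalloreductase named after its values were seen, with a log2 fold change of -0.43 ± 0.12 (SE, adjusted p = 0.178 in edgeR). Of all genes tested, 1.27% were called in edgeR, 3.39% in DESeq2 and 14.6% had an unadjusted p under 0.05. The median of the list was 0.05. The most abundant were Slc25a3, the mitochondrial carrier of phosphate and copper, and Sod1, the cytosolic copper and zinc superoxide dismutase. Slc25a3 had 217.4 and 221.1 RPKM in the WT and 244.3 and 231.2 RPKM in the Nfat5-/- libraries (log2 fold change 0.13 ± 0.09, SE, adjusted p = 0.579 in edgeR). Sod1 had 149.996 and 162.4 RPKM in the WT and 184.3 and 151.0 RPKM in the Nfat5-/- libraries, and its groups overlapped (0.11 ± 0.12 on the log2 scale, SE, adjusted p = 0.714 in edgeR). The plot of all genes places these lists among the 12614 genes tested.

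**Figure D4:**
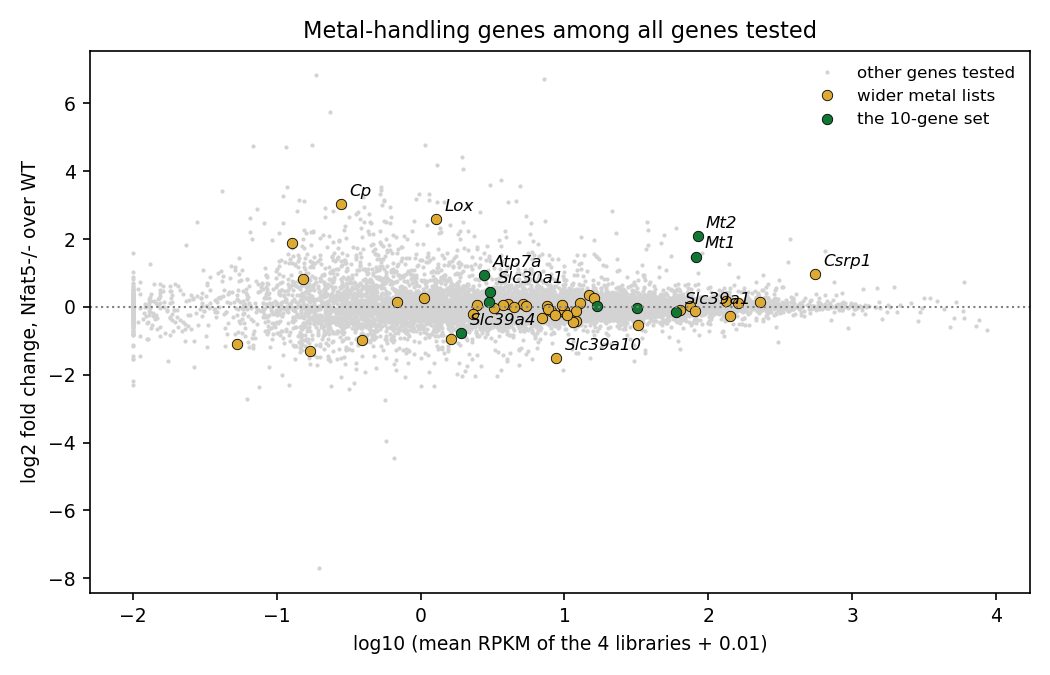
Log2 fold change, Nfat5-/- over WT, against the log10 of the mean RPKM of the 4 libraries with 0.01 added, for the 12614 genes tested (grey), the genes of the wider metal lists (yellow) and the 9 tested genes of the set (green). Mt1, Mt2, Lox and Csrp1 passed the threshold, and Atp7a is shown without a test.

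Markers of other cells that a tail culture can hold were read beside these results. Their counts stand beside the 1.27% of all genes tested that passed in edgeR, the 3.39% that passed in DESeq2 and the 14.6% with an unadjusted p under 0.05. Of 8 KC markers tested, 0 passed the threshold in edgeR or DESeq2 and 1 had an unadjusted p under 0.05, while their summed level was 11223 to 13014 RPKM in the WT and 11184 to 12801 RPKM in Nfat5-/- libraries. Smooth muscle markers rose with the metallothioneins and Csrp1. Of 5 listed, 4 were tested and all 4 were higher (Tagln, Acta2, Myh11 and Cnn1). Their sum was 151 to 184 RPKM in WT and 518 to 819 RPKM in Nfat5-/- libraries. Acta2 held most of this sum, with 163.7 and 133.7 RPKM in the WT and 449.9 and 722.8 RPKM in the Nfat5-/- libraries. Myh11 was near the floor, with 0.00913 and 0 RPKM in the WT and 0.120 and 0.294 RPKM in the Nfat5-/- libraries. Cnn1 reached at most 2.80 RPKM. Desmin (Des) was listed at 0 in 3 libraries. Of 7 melanocyte markers 5 were tested and 1, Tyrp1, fell past the edgeR threshold, 2 were lower in DESeq2 and 3 had an unadjusted p under 0.05. The sum of the list was 7.34 to 7.76 RPKM in WT and 2.31 to 3.26 RPKM in Nfat5-/- libraries, and Tyrp1, Pmel and Dct held most of it. Not every marker fell. Mitf had 0.249 and 0.204 RPKM in the WT and 0.258 and 0.315 RPKM in the Nfat5-/- libraries. Its log2 fold change was 0.27 ± 0.33 (SE, adjusted p = 0.761 in edgeR). The groups of Mlana, which was not tested, overlapped. Fibroblast markers summed to 0.409 to 0.542 and 0.484 to 1.13 RPKM and leukocyte markers to 2.08 to 3.65 and 3.37 to 3.73 RPKM, with 0 of 2 tested past the threshold of edgeR or DESeq2 in either list and 0 with an unadjusted p under 0.05. No list had a marker without a read in all 4 libraries. The part of the smooth muscle and melanocyte markers in the levels of Mt1, Mt2, Atp7a and Csrp1 was not tested.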

How the data were processed

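RNA-seq tables of 4 KC libraries, 2 WT and 2 Nfat5-/-, were used, with group and replicate number from the sample titles. The authors aligned the reads to GRCm38 with the CLC Genomics Workbench and deposited raw read counts per gene (total, exon and intron reads, not normalized) and RPKM values, written with decimal commas. Reads fitting several sites were shared by the software, and nothing states that strand was used.

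Total gene reads were tested with edgeR 4.0.16 in R 4.3.3: filterByExpr (12614 genes kept), TMM factors of 0.980 to 1.01, and the quasi-likelihood test on genotype alone. P-values are two-sided, adjusted by Benjamini-Hochberg over the 12614 genes, and called at 0.05. They measure the spread between these libraries, which the series calls independent experiments. The test gives no SE of its own, so each SE was derived as the size of the log2 fold change over the square root of F. Intervals were taken from this SE and a t quantile. They are per gene and not adjusted. The floor of 3 reads covers counting error only, since the libraries hold no molecular identifiers.

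The genes of the set, the wider lists and the markers were chosen with earlier results of these data known. Named are the 10 genes, Mt3 and Mt4, every gene of the wider lists past the threshold and the 2 most abundant of each list. Others are said to be named after their values were seen. The scripts were checked on counts simulated from these libraries.

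The alternatives were RLE factors, library totals, other filters, exon reads, uniquely placed exon reads, DESeq2 1.42.0, limma 3.58.1 on log2(RPKM + 1) and log2(RPKM + 0.1) over the 10259 genes with at least 1 RPKM in 2 libraries, a replicate block and each library left out. Same-numbered libraries did not deviate together over all tested genes (correlation -0.0993). This 1 value cannot show whether they shared a litter or a preparation, and the main test treated them as unpaired. Promoter windows came from RefSeq and other transcript starts from GENCODE M21, both on GRCm38.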

Additional observations from a re-analysis of the deposited data

How the results depend on the processing

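With 2 libraries a group, single libraries decide calls. Over all genes, 160 passed the threshold (119 higher, 41 lower), against 1137 (723 and 414) without the filter on low counts and 427 (306 and 121) in DESeq2. Leaving out 1 library gave 16 to 478 calls over all genes, the lowest without Nfat5-/- replicate 2. In the 10-gene set it gave 0 to 3 against 2, with 0 without either Nfat5-/- library and 3, Slc39a4 added, without WT replicate 1 (also with no filter). In the wider lists it gave 0 to 6 against 2, the lowest without Nfat5-/- replicate 2, and there the count was 9 with no filter, 5 in DESeq2 and 4 with uniquely placed exon reads. With the replicate block, 132 genes passed over all and 2 each in the set and the wider lists, so the block changed no call in the set or the wider lists. For the markers this was not examined. The log2 fold change of Nfat5 ranged from -0.23 to 0.53 with 1 library left out, reversing to -0.23 without WT replicate 1 and -0.16 without Nfat5-/- replicate 2. Slc31a1, near no change, reversed to -0.0074 with library totals and to -0.0047 and -0.0049 in limma. With 1 library left out it ranged from -0.048 without WT replicate 1 to 0.085, and was -0.0024 without Nfat5-/- replicate 1. Its largest value, 0.175 ± 0.169 (SE), came with uniquely placed exon reads. On the same scale Slc39a4 ranged from -1.36 without WT replicate 1 to 0.36 without WT replicate 2, and Slc39a6 from -0.105 without Nfat5-/- replicate 2 to 0.036 without Nfat5-/- replicate 1, both reversed at the upper end. In the order of levels, 6 of 10 genes kept their place with uniquely placed exon reads, and Slc31a1 moved from place 5 to place 8. Where a library was left out, fewer samples entered the fit and the lone library is assumed to vary like the other group, and other causes were not tested. Mt1 and Mt2 were higher in Nfat5-/- KCs under all 14 alternatives. The log2 fold change of Atp7a, chosen for being higher, lay between 0.67 and 1.01. At this depth Atp7b, Mt3 and Mt4 could not be compared.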

Other observations

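Copper enzymes that are loaded in the secretory route, where ATP7A delivers copper, were listed as 15 genes, of which 10 were tested. In this list 1 gene rose, 0 fell and 5 had an unadjusted p under 0.05 in edgeR, while DESeq2 called 2 higher and 0 lower. Of all genes tested, 1.27% were called in edgeR, 14.6% had an unadjusted p under 0.05 and 3.39% were called in DESeq2. Lox, which encodes lysyl oxidase, the copper enzyme that cross-links collagen and elastin, had 0.388 and 0.329 RPKM in the WT and 1.72 and 2.67 RPKM in the Nfat5-/- libraries. Its reads were 32 and 37 against 200 and 246, with a log2 fold change of 2.58 ± 0.29 (SE, adjusted p = 0.0174 in edgeR), and the adjusted p was 0.0917 without Nfat5-/- replicate 2. Lox is also known from smooth muscle and fibroblasts, and the smooth muscle markers rose in the same libraries. Their part in the level of Lox was not tested. The most abundant enzymes of the list were Moxd1, a monooxygenase related to dopamine beta-hydroxylase, and Pam, which amidates peptides. Moxd1 had 160.0 and 153.7 RPKM in the WT and 126.9 and 129.4 RPKM in the Nfat5-/- libraries (log2 fold change -0.28 ± 0.10, SE, adjusted p = 0.255 in edgeR). Pam had 12.5 and 10.2 RPKM in the WT and 10.1 and 9.02 RPKM in the Nfat5-/- libraries (-0.23 ± 0.13 on the log2 scale, SE, adjusted p = 0.464 in edgeR).

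The list also holds 3 ferroxidases, named after their values were seen, and none passed the threshold in edgeR. Ceruloplasmin (Cp) had 1 and 15 reads in the WT and 94 and 49 reads in the Nfat5-/- libraries (edgeR adjusted p = 0.0811). It passed in DESeq2, with uniquely placed exon reads, with no filter on low counts and with WT replicate 1 or WT replicate 2 left out. Hephaestin (Heph) had 41 and 27 against 14 and 17 reads (edgeR adjusted p = 0.281) and passed with no filter. Hephl1, a ferroxidase related to hephaestin, had 71 and 33 against 32 and 29 reads (edgeR adjusted p = 0.430) and passed without WT replicate 2. The mean level of each was under 1 RPKM in both groups.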
